A study of Mus musculus with 17 samples.

Results

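The immediate early response was followed through 10 genes: Egr1, Fos, Jun, Junb, Atf3, Ier2, Ier3, Btg2, Dusp1 and Myc. They were picked by name, as every probe whose platform gene symbol is one of the 10, out of 16593 gene symbols on the array. All 10 had a probe, with 11 probes in all since Myc had several. Of these genes 8 were tested. Ier2 and Btg2 were not, because their probes were above background on fewer than 3 arrays.

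Gene expression was measured on 17 Illumina bead arrays of mouse liver RNA. There were 4 arrays of healthy, untreated liver (tk entry "No" in the labels) and 6 of liver with fibrosis from carbon tetrachloride (CCl4), which damages hepatocytes and leads to scarring (tk entry "Neg"). Another 4 arrays came from CCl4-treated mice with the tk entry "FSP1 +", described as FSP1 ablated, and 3 from CCl4-treated mice with the tk entry "aSMA +", described as aSMA ablated. Both ablated groups therefore share the CCl4 treatment with their controls. S100a4 encodes FSP1, by which fibroblasts are often identified, and Acta2 encodes aSMA, by which myofibroblasts are. In mouse models of this kind a viral thymidine kinase is made from the marker gene's promoter, so that a drug kills dividing cells that express it. The dose and timing of CCl4, the drug, the strain and the age are not stated. Since the labels do not tie arrays to separate animals, p-values measure the spread between these arrays, which may be technical.

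Immediate early genes are the first to be transcribed after a growth factor, cytokine or stress signal, within minutes and without new protein synthesis. MAP kinases switch them on through factors already bound at their promoters, among them serum response factor with its Elk partners and CREB, and the transcripts are short-lived. In liver this response follows injury and partial removal, ahead of the entry of hepatocytes into the cell cycle. Many of the products are transcription factors: Egr1 is a zinc finger protein, and Fos, Jun and Junb are bZIP proteins that pair as AP-1. Others, such as Dusp1, close the signal down again.

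The promoters of the AP-1 genes and of Dusp1 are shown, because the factors that switch these genes on bind close to the start of transcription. Each sequence is the 150 bases before the start of the gene in RefSeq on build GRCm38.p6, read 5′ to 3′ on the strand of the gene. Capitals mark any motif found there among the CRE core (TGACG), the full CRE (TGACGTCA), the E-box (CACGTG), the TATA box (TATAAA) and the SP1 site (GGGCGG), on either strand.
Fos, chr12:85473740-85473889, plus strand: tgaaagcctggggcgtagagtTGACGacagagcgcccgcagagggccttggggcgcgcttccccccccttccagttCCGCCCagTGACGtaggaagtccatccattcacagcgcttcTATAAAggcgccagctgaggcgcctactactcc
Jun, chr4:95052223-95052372, minus strand: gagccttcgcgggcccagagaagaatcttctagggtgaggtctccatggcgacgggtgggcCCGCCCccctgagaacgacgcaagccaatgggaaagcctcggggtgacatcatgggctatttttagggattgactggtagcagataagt
Junb, chr8:84978749-84978898, minus strand: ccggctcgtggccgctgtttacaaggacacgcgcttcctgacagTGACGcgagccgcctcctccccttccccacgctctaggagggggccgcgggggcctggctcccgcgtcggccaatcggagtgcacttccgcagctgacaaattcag
Atf3, chr1:191183334-191183483, minus strand: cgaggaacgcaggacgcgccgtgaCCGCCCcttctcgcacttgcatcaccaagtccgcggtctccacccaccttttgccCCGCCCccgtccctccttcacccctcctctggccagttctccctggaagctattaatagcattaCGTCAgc
Dusp1, chr17:26508473-26508622, minus strand: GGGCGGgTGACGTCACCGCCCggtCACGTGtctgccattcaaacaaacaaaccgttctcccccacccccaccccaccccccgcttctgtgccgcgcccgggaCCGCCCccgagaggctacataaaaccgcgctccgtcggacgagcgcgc

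RefSeq windows from 250 bases before to 50 bases after the start were at hand for 7 of the 10 genes, all but Egr1, Ier2 and Myc. The CRE core, to which CREB and ATF proteins bind, was found in 5 of the 7 windows (Fos, Junb, Atf3, Btg2 and Dusp1) and in 20.8% of all 32851 windows. The full CRE, which contains the CRE core, was found in 2 of the 7 (Btg2 and Dusp1) and in 1.79% of all. In Fos a CRE core starts 66 bases and the TATA box 33 bases before the start. The SP1 site was found in 6 of the 7 and in 35.7% of all windows, and the TATA box letters in 2 of the 7 (Fos and Junb) and in 13.6%. In Junb these letters begin at the start itself rather than before it, outside the sequence shown. The E-box was found in Dusp1 and in 7.15% of all windows. The CArG box bound by serum response factor, the AP-1 site (TGANTCA) and the EGR site (GCGTGGGCG) were in 1.63%, 7.81% and 0.612% of all windows and in none of the 7, which says only that these letters are not in the windows searched.

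Values below are normalized log2 intensities, each a level of 1 probe, as mean ± SD, and a difference is a log2 fold change with its standard error (SE), taken from a limma fit to all 17 arrays. A gene passed when its p, adjusted by Benjamini-Hochberg over all 12863 genes tested, was under 0.05. Each array had 13784 to 15869 of its 25697 probes above background. Precision depends on how many arrays a group has and on the spread between them. The fit gives each gene 1 spread for all groups, although spreads differed. The SD of Egr1 was 0.19 in healthy and 1.66 in FSP1 ablated liver. As deposited, healthy arrays had an upper quartile intensity of 63.7 to 65.7, and all others one of 165.4 to 178.8. S100a4 lay near background throughout, from 5.85 to 6.20, and is no check of FSP1 ablation. Acta2 read 9.15 to 11.34 on the CCl4 arrays and 6.85 to 8.58 on the healthy arrays. On the aSMA ablated arrays it read 7.38 to 9.31, which overlapped with CCl4 liver, and it did not pass against CCl4 liver. On the FSP1 ablated arrays it read 6.95 to 7.77 and passed as lower, so that a low level was not particular to aSMA ablation. Healthy liver and CCl4 arrays 5 and 6 carried a Y-linked signal. Both ablated groups and CCl4 arrays 1 to 3 carried Xist instead, and CCl4 array 4 neither. Sex and group thus cannot be told apart between either ablated group and healthy liver, and results against healthy liver are given also for CCl4 arrays 5 and 6. Those arrays share the higher deposited intensity of the other injured arrays. That intensity level and group cannot be told apart in any comparison with healthy liver.

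The first comparison, of CCl4 with healthy liver, describes the immediate early response in the injured organ. Egr1 was about 19.4-fold higher, and Fos, Junb and Atf3 rose by between 1.35 and 1.78 on the log2 scale, while Jun, Ier3, Dusp1 and Myc did not pass. Of the 8 genes tested 4 rose and none fell, where 16.5% of all genes tested passed as higher and 17.6% as lower. The median difference was 1.42 over the 8 and -0.02 over all genes.

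Egr1, a transcription factor switched on by mitogens and injury, read 7.77, 7.34, 7.61 and 7.45 on healthy arrays 1 to 4. On the 6 CCl4 arrays it had a lowest value of 10.03, a median of 12.13 and a highest of 13.42. Every injured array lay above every healthy array, also in the deposited intensities, which were 52.2 to 77.4 in healthy liver and 1145 to 10620 in CCl4 liver. The difference was 4.28 (SE 0.80; adjusted p = 0.000898). In whole tissue, more expressing cells and more RNA per cell cannot be told apart, here and below.

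Fos, the AP-1 subunit that needs a Jun partner, read 6.39, 5.76, 5.95 and 5.77 on healthy arrays 1 to 4 and was above background on 2 of them. On the CCl4 arrays its lowest value was 6.41, its median 7.56 and its highest 9.85. The groups did not overlap, but the lowest CCl4 array lay just above the highest healthy one. Fos rose by 1.78 (SE 0.63; adjusted p = 0.0400), and the adjusted p was 0.0654 to 0.0907 when CCl4 array 1, 3 or 4 or healthy array 2, 3 or 4 was left out.

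Junb, a Jun relative that also restrains proliferation, read 8.38, 8.26, 8.24 and 7.80 on the healthy arrays. On the CCl4 arrays the lowest value was 8.58, the median 9.32 and the highest 11.57. The groups did not overlap, and Junb rose by 1.50 (SE 0.48; adjusted p = 0.0263), with an adjusted p of 0.0506 to 0.0762 when healthy array 2, 3 or 4 was left out. Atf3, a stress-induced factor of the ATF/CREB family, read 6.22, 5.92, 5.73 and 5.83 in healthy liver, above background on 2 of the 4 arrays. On the CCl4 arrays it ranged from 6.74 over a median of 6.95 to 8.34, again without overlap, and rose by 1.35 (SE 0.39; adjusted p = 0.0149). No overlap with higher values was thus seen for 4 of the 8 genes and for 11.4% of all genes tested.

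Jun, the main partner of Fos, averaged 7.42 ± 0.35 (n = 4) in healthy liver and 8.45 ± 0.76 (n = 6) in CCl4 liver, where it ranged from 7.77 to 9.76. The groups overlapped, and the difference of 1.03 (SE 0.51; adjusted p = 0.134) did not pass, with an interval from -0.06 to 2.12. Dusp1, the phosphatase that switches off MAP kinases, averaged 10.10 ± 0.68 (n = 4) and 10.76 ± 1.36 (n = 6), a difference of 0.66 (SE 0.65; adjusted p = 0.466) with an interval from -0.73 to 2.04. Its lowest CCl4 array, at 8.94, lay below all healthy arrays and its highest, at 12.68, above them.

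Ier3, an early gene tied to cell survival, read 6.95, 6.57, 7.02 and 6.86 on the healthy arrays. On the CCl4 arrays it spread from 6.93 over a median of 8.31 to 11.45. Most CCl4 arrays lay above healthy liver but the lowest did not, and the difference of 1.62 (SE 0.63; adjusted p = 0.0590) did not pass. It was 1.02 (adjusted p = 0.0375) without CCl4 array 3, which holds the highest value, and also passed without array 5 or 6.

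Myc, the growth-promoting transcription factor, was near background. The probe used read 5.71 to 5.88 in healthy and 5.75 to 6.10 in CCl4 liver, above background on 1 of 4 and 2 of 6 arrays, and its other probe was above background on none of the 17. The difference was 0.01 (SE 0.08; adjusted p = 0.922). Ier2, an early gene of unclear biochemical function, read 5.70 to 5.86 over all 17 arrays and was above background on 1 of them. Btg2, an antiproliferative gene and p53 target, read 5.69 to 5.76 and was above background on none. For these probes the arrays give only a bound, not a level of the transcripts.

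Parts of the CCl4 arrays were also set against healthy liver, starting with those that share its sex signal. On CCl4 arrays 5 and 6, Y-linked like healthy liver, Egr1 read 10.03 and 10.07 and differed from healthy liver by 2.51 (adjusted p = 0.0553). Atf3 differed there by 0.94 (adjusted p = 0.225), Junb by 0.51 (adjusted p = 0.559), Fos by 0.49 (adjusted p = 0.680) and Dusp1 by -0.04 (adjusted p = 0.983). By limma 0 of the 8 passed, where 2505 of all 12863 genes did. CCl4 arrays 1 to 3 carried Xist, unlike healthy liver, so sex and group cannot be told apart there. With these arrays alone Egr1 differed by 5.02 (adjusted p = 0.000717) and Ier3 by 2.69 (adjusted p = 0.00190). Arrays 4 to 6 are mixed in their signal. With them alone Egr1 differed by 3.54 (adjusted p = 0.0102) and Ier3 by 0.55 (adjusted p = 0.500). Without further normalization 7 of the 8 passed as higher, where 8499 of all 12863 genes did. That scale put the median gene 1.02 above healthy liver.

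**Figure D1:**
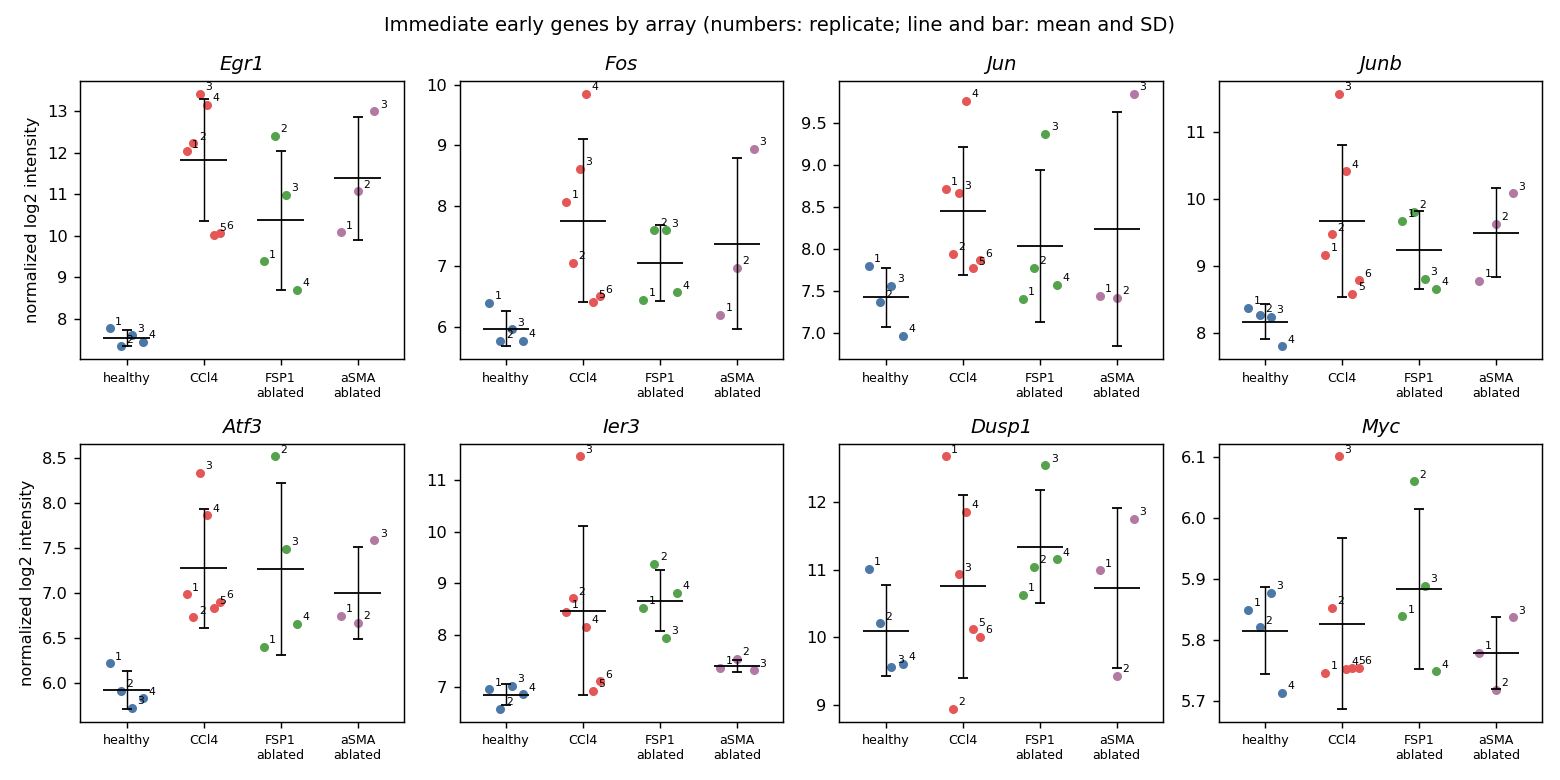
Normalized log2 intensity (vertical axis, a separate range for each gene) of the 8 genes tested on each of the 17 arrays, by group, with replicate numbers beside the points and black lines for mean and SD. Egr1 lies between 7.34 and 7.77 on the healthy arrays and at 8.70 or above on all others, while Dusp1 and Myc overlap between all groups.

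Other genes of the response were read from lists that name the transcription factors, the signalling and feedback genes, the MAP kinase phosphatases with Sprouty-type inhibitors, and the kinases and factors upstream. Of 17 other immediate early transcription factors tested, 2 rose and 2 fell, with a median difference of -0.03. Klf6, a zinc finger factor first known from injured liver, rose by 2.31 (SE 0.33; adjusted p = 0.000101), and the nuclear receptor genes Nr4a3 and Nr4a2 fell by 0.19 and fell by 0.35. Of 23 other signalling and feedback genes 8 rose and 2 fell, with a median of 0.75. Btg1, a relative of Btg2, rose by 1.43 (SE 0.23; adjusted p = 0.000272), the survival gene Mcl1 by 0.79 and the EGF receptor ligand gene Hbegf by 0.90.

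Of 12 MAP kinase phosphatases and related inhibitors tested, 4 rose and 1 fell. Spred1, an inhibitor of the Ras pathway, rose by 0.93 (SE 0.15; adjusted p = 0.000244) and the phosphatase gene Dusp14 by 0.55, while Dusp7 fell by 0.45. Of 13 upstream kinases and promoter-binding factors none rose and 6 fell. They included Mapk8, the stress kinase that phosphorylates Jun, which fell by 0.66 (SE 0.12; adjusted p = 0.000659), Map2k2, which fell by 0.55, and Egfr, the receptor of epidermal growth factor, which fell by 1.02 (SE 0.27; adjusted p = 0.00916). These falls are relative to the other genes after normalization, and on the deposited scale 65 of all genes passed as lower.

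Of 19 Myc partners and targets 5 rose and 2 fell, with a median of -0.03. Ldha, the lactate dehydrogenase subunit, rose by 0.98 (SE 0.15; adjusted p = 0.000194), the mitochondrial chaperone Hspd1 by 0.64, and the nucleolar gene Nolc1 fell by 0.36. Of 9 heat shock genes 1 rose (Hspe1, by 0.42) and 2 fell (Dnajb1, by 0.82, and Dnaja1, by 0.42), and their summed linear intensity overlapped between the groups, at 23700 to 30500 in healthy and 21000 to 30700 in CCl4 liver.

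Markers of other cell types moved in the same comparison. Of 11 stellate cell and fibroblast markers 8 rose and none fell, with a median difference of 1.43, and their summed intensity was 4780 to 7790 in healthy and 12800 to 17600 in CCl4 liver, without overlap. Of 10 hepatocyte markers 4 fell, and their sum was 164000 to 175000 in healthy and 137000 to 153000 in CCl4 liver. The summed intensity of 9 macrophage markers (of 11 listed) was 2930 to 5940 in healthy and 8540 to 18500 in CCl4 liver, with 5 risen and 1 fallen. That of 9 neutrophil markers (of 11) was 760 to 1440 and 1270 to 4090, with 2 risen. That of 5 red blood cell markers (of 7) was 13300 to 17100 and 3820 to 8820, with 3 fallen. The part of these lists in the differences of the immediate early genes was not tested.

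The spread between arrays of the same group was large for most of these genes. The CCl4 group mixes arrays with Xist and arrays with a Y-linked signal, and the part of that split in the spread was not tested. Pooled over the CCl4 and both ablated groups, the within-group SD of Egr1 was 1.53, larger than that of 99.9% of the 12863 genes, against a median SD of 0.18 over all genes. Fos and Ier3 had an SD of 1.20 each, Dusp1 of 1.19, Jun of 0.96, Junb of 0.91 and Atf3 of 0.74, and each was larger than in at least 98.6% of genes. Over the 13 injured arrays Egr1 spanned a 26.4-fold range, Ier3 23.1-fold, Dusp1 13.4-fold and Fos 12.6-fold. In healthy liver the spread was smaller. There the SD of Egr1 was 0.19, larger than in 59.2% of genes. Only Dusp1 stood near the top of the distribution, at 0.68 and above 98.4% of genes. Dusp1 was also bright in healthy liver, at 353.7 to 1009.7 as deposited, a 2.74-fold range after normalization. Fos ran there from 3.6 to 17.1 as deposited, but over a 1.55-fold range after normalization. Fos and Atf3 were above background on only 2 of the 4 healthy arrays. The part of low signal in the smaller healthy spread was not tested. Myc, near background, had a pooled SD of 0.13 over the CCl4 and both ablated groups.

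**Figure D2:**
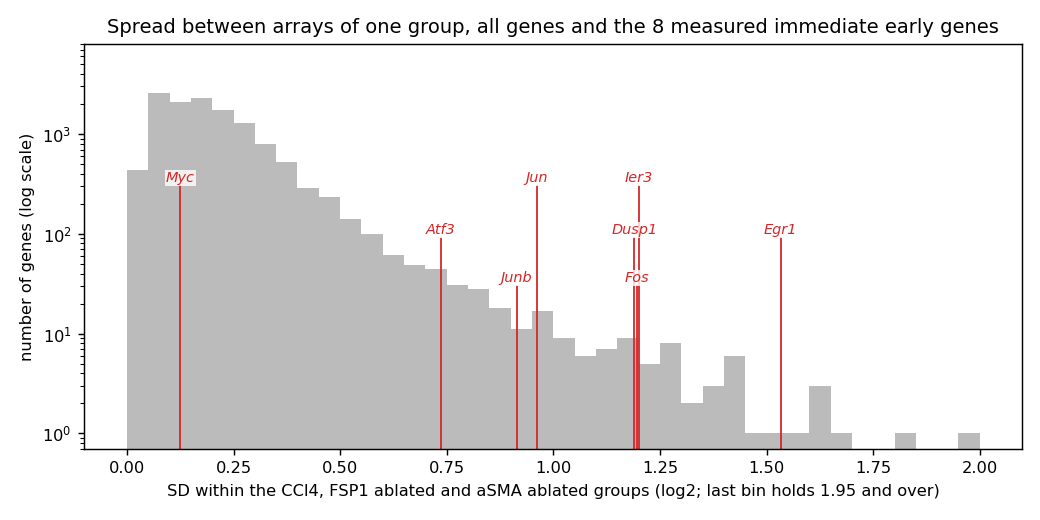
Histogram of the pooled within-group SD (horizontal axis, log2 units) over the CCl4, FSP1 ablated and aSMA ablated arrays for all 12863 genes, with the number of genes on a log axis and red lines at the 8 genes tested. All but Myc lie in the right tail, from Atf3 at 0.74 to Egr1 at 1.53.

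The high arrays were largely shared between the genes. Among the CCl4 arrays, array 3 was the highest for 5 of the 8 genes (Egr1, Junb, Atf3, Ier3 and Myc), against 16.4% of all genes, array 4 for Fos and Jun, and array 1 for Dusp1. CCl4 array 5 was the lowest for 5 of the 8, against 17.7% of all genes. For Egr1, Fos, Jun, Junb and Ier3 the lowest CCl4 arrays were 5 and 6, which carried the Y-linked signal. Among the aSMA ablated arrays, array 3 was the highest for 7 of the 8, against 27.0% of all genes, with Ier3 the exception. FSP1 ablated array 2 was the highest for 6 of 8, against 25.6% of all genes, and array 3 for Jun and Dusp1. Healthy array 1 was the highest for 6 of 8, against 35.3% of all genes.

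CCl4 array 3 was also the highest CCl4 array for 10 of 17 other immediate early transcription factors and for 13 of 23 signalling and feedback genes. On aSMA ablated array 3 the counts were 7 of 17 and 9 of 23, or 41.2% and 39.1% against 27.0% of all genes, and array 2 of that group was the highest for as many of the 23. On FSP1 ablated array 2 they were 6 of 17 and 5 of 23, or 35.3% and 21.7% against 25.6% of all genes, and array 3 was the highest for 9 of 17 and 9 of 23. On healthy array 1 they were 5 of 17 and 12 of 23, or 29.4% and 52.2% against 35.3% of all genes. The other lists thus shared the high array of the 8 genes in some groups and not in others. These counts are descriptions of single arrays, which carry no replicate of their own, and the 10 genes were chosen with earlier results of these data known.

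**Figure D3:**
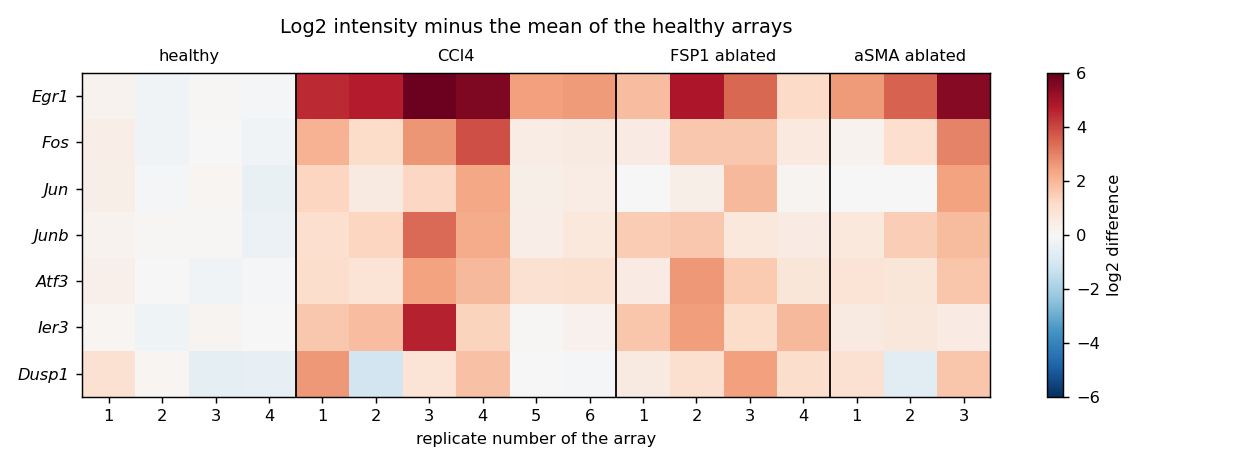
Log2 intensity minus the mean of the 4 healthy arrays (colour, red higher and blue lower) for 7 genes in rows and the 17 arrays in columns, in groups with the replicate number below. The darkest cells are in the Egr1 row. CCl4 arrays 3 and 4 and aSMA ablated array 3 are redder than most other arrays for Egr1, Fos, Jun, Junb and Atf3. CCl4 arrays 5 and 6 are pale apart from Egr1, and Dusp1 does not follow the same order of arrays as Egr1.

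By the smallest mean absolute difference between centred values over the 17 arrays, the gene most like Fos was Jun, at 0.45, followed by Rgs1, a regulator of G protein signalling, at 0.49 and Atf3 at 0.50. The one most like Jun was Zfp36, which encodes the mRNA-destabilizing protein tristetraprolin, at 0.37. Junb was most like Nfkbiz, an inducible regulator of NF-kappaB, at 0.28, and Ier3 most like Sybu at 0.39, followed by Socs3, the feedback inhibitor of cytokine signalling, at 0.44. The nearest named gene to Atf3 was Cytip at 0.35, with Tnfaip3, an NF-kappaB inhibitor, at 0.37. For Egr1 the nearest was Ccnd1, cyclin D1, at 0.95, with Fos at 0.99 and Igfbp1, a secreted protein of hepatocytes, at 1.01. This measure grows with the spread of a gene, which is largest for Egr1 among the 8, so it is not compared between genes. Junb had the same order of arrays as Egr1 within the CCl4 group and within the aSMA ablated group. For Junb, Atf3, Ier3, Dusp1 and Myc, none of the 10 genes was among the 3 nearest.

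The set of FSP1 ablated arrays against CCl4 liver asks whether the response differs once FSP1-expressing cells are depleted. None of the 8 genes passed by limma, where 12.9% of all genes passed, 5.54% as higher and 7.37% as lower. At an unadjusted p under 0.05 the count was also 0 of 8, against 26% of all genes. The median difference was -0.22 over the 8 and 0.01 over all genes. Egr1 read 9.39, 12.41, 10.98 and 8.70 on FSP1 ablated arrays 1 to 4, and the lowest 2 of these lay below all CCl4 arrays. The difference was -1.45 (SE 0.80; adjusted p = 0.281), with an interval from -3.16 to 0.26. It was -2.19 (adjusted p = 0.139) when only the CCl4 arrays with high Xist (1 to 3) were used. A Y-linked block, which sets the ablated arrays against CCl4 arrays 1 to 4, gave -2.34, which passed (adjusted p = 0.0448).

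Fos read 6.45, 7.60, 7.60 and 6.56 after FSP1 ablation and differed by -0.70 (SE 0.63; adjusted p = 0.541). Junb read 9.67, 9.81, 8.81 and 8.66 and differed by -0.43 (SE 0.48), with an interval from -1.46 to 0.60. Jun read 7.40, 7.78, 9.36 and 7.57, with only array 3 above the CCl4 median of 8.30, and differed by -0.42 (SE 0.51). Atf3 read 6.41, 8.52, 7.49 and 6.66 and differed by -0.01 (SE 0.39), with an interval from -0.84 to 0.82. Ier3 read 8.53, 9.38, 7.95 and 8.81 and differed by 0.20 (SE 0.63), and by -0.87 (adjusted p = 0.386) against CCl4 arrays 1 to 3. Dusp1 read 10.63, 11.05, 12.55 and 11.16, a difference of 0.59 (SE 0.65) with an interval from -0.80 to 1.98. These values overlapped with the CCl4 arrays for every gene, and Jun on arrays 1 and 4 and Atf3 on arrays 1 and 4 lay below the CCl4 range, with Atf3 on array 2 above it. The intervals are wide, so a p that misses the threshold does not show that the groups were alike.

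Around them, of 23 other signalling and feedback genes 4 fell after FSP1 ablation and none rose. Hbegf fell by 0.79 (SE 0.16; adjusted p = 0.00363), Plk2, a polo-like kinase, fell by 0.62 and Ccn1, a matricellular gene induced by serum response factor, fell by 0.74 (SE 0.18; adjusted p = 0.0131). None of the 17 other transcription factors passed, with Egr2 at -0.72 (adjusted p = 0.0777), Klf2 at 0.57 and Klf6 at -0.93 (adjusted p = 0.0799). None of the 12 phosphatases and inhibitors passed. Of 13 upstream genes Egfr rose by 0.86 (SE 0.27; adjusted p = 0.0465) and the rest did not pass, with Srf, which encodes serum response factor, at 0.35 (adjusted p = 0.0762). Of the Myc partners and targets 3 rose and 2 fell, among them Ldha, which fell by 0.84 (SE 0.15; adjusted p = 0.00177), and Max, the partner of Myc, which rose by 0.65. Of the heat shock genes 1 fell (Hspe1, by 0.37). The summed intensity of neutrophil markers was 2860 to 5840 on the FSP1 ablated arrays and 1270 to 4090 on the CCl4 arrays, with none of 9 passing. Of 11 stellate cell and fibroblast markers 3 fell (Col3a1, Col1a1 and Acta2), with sums of 10400 to 14000 after FSP1 ablation and 12800 to 17600 in CCl4 liver. Of 9 macrophage markers 2 rose (Cd163 and Clec4f) and 1 fell (Lgals3), with sums of 8020 to 12100 and 8540 to 18500. Of 5 red blood cell markers 1 fell (Hbb-b2), with sums of 481 to 5520 and 3820 to 8820. These marker genes are named because they make up small counts, after their values were seen, and their part was not tested.

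The same question was put for aSMA-expressing cells. None of the 8 genes passed by limma, where 0.00777% of all genes passed. At an unadjusted p under 0.05 the count was also 0 of 8, against 11.2% of all genes. The median difference was -0.25 over the 8 and -0.00 over all genes. Egr1 read 10.08, 11.08 and 13.00 on arrays 1 to 3, all within the range of the CCl4 arrays, and differed by -0.43 (SE 0.88; adjusted p = 0.919), with an interval from -2.31 to 1.44. Fos read 6.20, 6.97 and 8.94 and differed by -0.38 (SE 0.69), and Jun read 7.44, 7.42 and 9.84 and differed by -0.22 (SE 0.56). On array 3 Jun was above the highest CCl4 array, and on the other arrays below the lowest.

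After aSMA ablation Junb read 8.78, 9.63 and 10.08 and differed by -0.17 (SE 0.53), and Atf3 read 6.75, 6.67 and 7.59 and differed by -0.28 (SE 0.43). Dusp1 read 11.00, 9.43 and 11.76 and differed by -0.03 (SE 0.71), with an interval from -1.55 to 1.49. Ier3 varied little, at 7.37, 7.54 and 7.32, and all of its values lay below the CCl4 median of 8.31. Its difference was -1.06 (SE 0.69; adjusted p = 0.637) against all CCl4 arrays. With the 3 high-Xist CCl4 arrays alone it was -2.13 and passed (adjusted p = 0.0360), and against arrays 4 to 6 it was 0.01 (adjusted p = 0.998). CCl4 arrays 1 to 3 read 8.45, 8.71 and 11.45 for Ier3, so the -2.13 leans on array 3. Whether the call holds without it was not tested. Of the other lists, none of the 17 transcription factors, 23 signalling genes, 12 phosphatases and inhibitors, 13 upstream genes, 19 Myc partners and targets or 9 heat shock genes passed, and neither did any of the cell type markers tested. Hbegf differed by -0.46 (adjusted p = 0.329) and Per1, a clock gene with an early response, by 0.53 (adjusted p = 0.441).

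The ablations were set against each other directly, a comparison in which 4.64% of all genes passed, 1.94% as higher and 2.71% as lower after FSP1 ablation. None of the 8 genes passed by limma, with 0 at an unadjusted p under 0.05, against 20.6% of all genes. Ier3 was the only one without overlap, higher on every FSP1 ablated array (7.95 to 9.38) than on every aSMA ablated array (7.32 to 7.54), with a difference of 1.26 (SE 0.75; adjusted p = 0.371) and an interval from -0.33 to 2.84. Such a gap was seen for 11.4% of all genes. Egr1 differed by -1.02 (SE 0.95; adjusted p = 0.606), and Fos, Jun, Junb and Atf3 differed by -0.32, -0.21, -0.26 and 0.27. Without aSMA ablated array 3, the differences of Fos, Jun and Junb turned to 0.47, 0.60 and 0.03. Among the other lists Ncl, the nucleolin gene and a Myc target, was higher after FSP1 ablation by 0.46 (SE 0.12; adjusted p = 0.0434), and no other gene of the immediate early, phosphatase or upstream lists passed. Of the cell type markers 1 of 9 macrophage, 2 of 11 stellate cell and fibroblast and 2 of 5 red blood cell markers were lower after FSP1 ablation. Of 10 hepatocyte markers 1 was higher and 1 lower. The part of these markers was not tested.

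**Figure D4:**
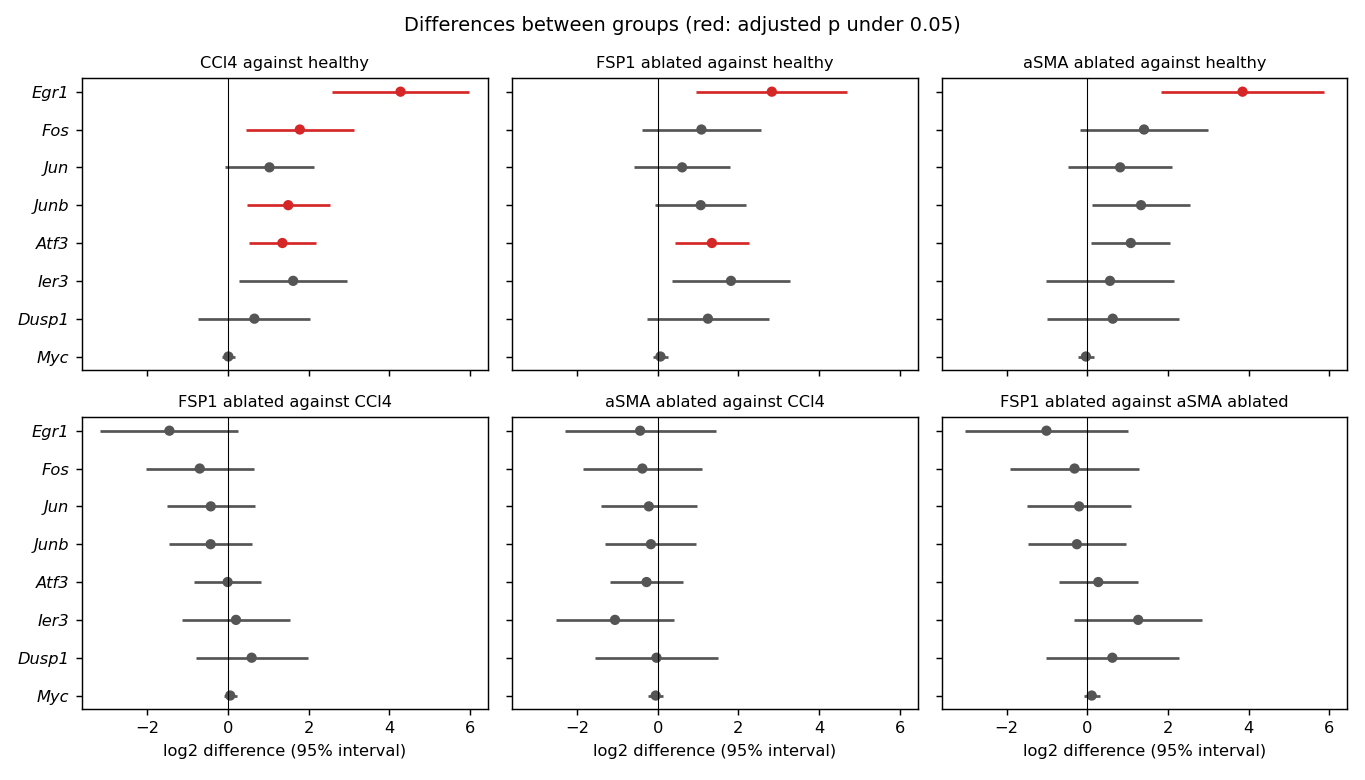
Log2 difference (horizontal axis) with its 95% interval for the 8 genes in each of the 6 comparisons, red where the adjusted p is under 0.05. Egr1 is red in the 3 comparisons with healthy liver, and no gene is red in the 3 comparisons among the CCl4-treated groups.

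Each ablated group was also compared with healthy liver, with the healthy arrays shared by these comparisons. After FSP1 ablation Egr1 was still 7.11-fold higher than in healthy liver, by 2.83 (SE 0.88; adjusted p = 0.0370), and Atf3 rose by 1.34 (SE 0.43; adjusted p = 0.0411), so that 2 of the 8 passed, where 9% of all genes passed as higher and 8.9% as lower. After aSMA ablation Egr1 was 14.4-fold higher, by 3.85 (SE 0.95; adjusted p = 0.00901), and was the only one of the 8 to pass, where 11.2% of all genes passed as higher and 11.5% as lower. Egr1 lay above the healthy range on all 7 ablated arrays, and so did Atf3, Junb and Ier3. With Fos, 5 of the 8 lay wholly above healthy liver after FSP1 ablation, against 10.4% of all genes, and 4 of the 8 did after aSMA ablation, against 16.6%.

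In the FSP1 ablated group Ier3 differed from healthy liver by 1.82 (SE 0.69; adjusted p = 0.0811) and Junb by 1.07 (SE 0.53; adjusted p = 0.180). In the aSMA ablated group Junb differed by 1.33 (SE 0.57; adjusted p = 0.108), Atf3 by 1.08 (SE 0.46; adjusted p = 0.107) and Ier3 by 0.56 (SE 0.75; adjusted p = 0.634). For Fos the FSP1 ablated group gave 1.09 (SE 0.69; adjusted p = 0.303) and the aSMA ablated group 1.40 (SE 0.75; adjusted p = 0.196). Klf6 rose by 1.38 (SE 0.36; adjusted p = 0.0168) after FSP1 ablation and by 2.34 (SE 0.39; adjusted p = 0.000789) after aSMA ablation, and so did Btg1, by 1.38 and 1.58. Sgk1, a kinase gene induced by serum and glucocorticoids, rose by 1.84 (SE 0.34; adjusted p = 0.00242) after FSP1 ablation. After FSP1 ablation the calls of both Egr1 (adjusted p = 0.0756 to 0.120) and Atf3 (adjusted p = 0.0786 to 0.127) were lost without FSP1 ablated array 2 or 3 or healthy array 2, 3 or 4. After aSMA ablation the Egr1 call was lost without array 3 (3.04, adjusted p = 0.0541). Under the Y-linked block the differences of Egr1 were 0.17 (adjusted p = 0.958) and 1.19 (adjusted p = 0.558), and that of Atf3 after FSP1 ablation was 0.73 (adjusted p = 0.649).

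Cell type markers moved against healthy liver in these comparisons too. After FSP1 ablation 5 of 9 neutrophil, 5 of 11 stellate cell and fibroblast and 3 of 9 macrophage markers rose, and 5 of 5 red blood cell markers fell. After aSMA ablation 8 of 11 stellate cell and fibroblast, 5 of 9 macrophage and 4 of 9 neutrophil markers rose, and 1 of 5 red blood cell markers fell. The summed stellate cell and fibroblast intensity was 11900 to 15600 after aSMA ablation, and that of macrophage markers 13000 to 15000, both above the healthy range. The part of these lists was not tested.

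By mean level Egr1 stood highest in CCl4 liver (11.82 ± 1.47, n = 6), then in aSMA ablated (11.39 ± 1.48, n = 3), FSP1 ablated (10.37 ± 1.66, n = 4) and healthy liver (7.54 ± 0.19, n = 4), and neighbouring injured groups did not differ beyond their spread. The means of Fos, Jun and Junb followed the same order, from 7.75 to 5.97, from 8.45 to 7.42 and from 9.66 to 8.17. Their medians did not. The median of Fos was 7.08 after FSP1 and 6.97 after aSMA ablation, and that of Junb 9.63 after aSMA ablation and 9.32 in CCl4 liver. The median of Jun was 7.44 after aSMA ablation, 7.68 after FSP1 ablation and 7.47 in healthy liver. For Ier3 and Dusp1 the FSP1 ablated group had the highest mean, at 8.67 ± 0.60 and 11.35 ± 0.84 (n = 4), which did not differ from CCl4 liver beyond the spread. Atf3 averaged 7.28 ± 0.66 in CCl4 liver (n = 6) and 7.27 ± 0.95 after FSP1 ablation (n = 4).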

How the data were processed

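RNA of 17 mouse liver samples was hybridised to Illumina arrays. Per the labels, RNA was isolated with Trizol and labelled with an Ambion kit. Intensity values as deposited were used, 1 per probe and array. The submitters' processing notes name GenomeStudio, and do not say how the authors corrected background or normalized. A second table has 34 value columns whose names match no label, and it was not used.

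Each array's background was set at the mode of its values, and its SD was taken from values under the mode. Values went through limma's normexp correction (offset 50), quantile normalization and log2. Probes above the 95th percentile of background on at least 3 arrays were kept (17450 of 25697; 23978 probes have 1 symbol), with the brightest probe per gene, which gave 12863 features, called genes here. One limma fit (limma 3.58.1, R 4.3.3) with group as the only term gave 6 two-sided contrasts, adjusted by Benjamini-Hochberg. The fit was tested on simulated data. Named genes are the 10 genes, up to 3 of each list with the smallest p per comparison, S100a4, Acta2 and the 3 genes nearest each of the 10. The genes and lists were chosen with earlier results of these data known. Alternatives were other scales, offsets, filters, probe rules and variances, array weights, replicate and Y-linked blocks, parts of the CCl4 arrays and leaving out each array. CCl4 arrays 5 and 6 alone were added after seeing the data.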

Additional observations from a re-analysis of the deposited data

Results flagged for a closer look

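Of 24 sets of values checked (8 genes in the healthy, CCl4 and FSP1 ablated groups), 1 held an array far from the others, about what chance gives in 1 of 20 such sets. Myc on CCl4 array 3 read 6.10, with the next CCl4 array at 5.85. This probe lay near background on most arrays.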

How the results depend on the processing

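Of 1088 differences of single genes recomputed under other settings, 932 kept their direction and side of the threshold, 46 gained a call, 43 lost one, and 67 turned in direction. The cause was not tested unless fewer arrays or genes were used by construction.

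Against healthy liver, CCl4 liver had 4381 genes past the threshold. A Y-linked block comes here to the same fit as CCl4 arrays 5 and 6 alone, and gave 2505. On the deposited scale there were 8564 (8499 higher, 65 lower). With median centring there were 7798 (6561 higher, 1237 lower), where the median of all genes was 0.36 above 0. CCl4 arrays 4 to 6 gave 3472 genes, and only the groups compared 3649. Of the 8 immediate early genes 4 passed, 1 with CCl4 arrays 4 to 6, 0 with the Y-linked block or arrays 5 and 6, 7 on the deposited scale, 2 with only the groups compared, and 2 to 5 when single arrays were left out. Dusp1 turned to -0.037 with the Y-linked block or arrays 5 and 6. Myc turned to -0.061 with each of these and with arrays 4 to 6, to -0.078 with median centring, and lay between -0.043 and 0.032 without single arrays.

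FSP1 ablated against healthy liver gave 2303 genes, 208 with the Y-linked block, 4019 with array weights, 9235 on the deposited scale (9175 higher, 60 lower), 6921 with median centring (6363 higher, 558 lower), and 1409 to 3018 without single arrays. With no filter on dim probes 2033 genes passed, and with only the groups compared 1854. Of the immediate early genes 2 passed, 0 with the Y-linked block or no filter on dim probes, 7 on the deposited scale, 5 with median centring, 4 with only the groups compared, and 0 to 2 without single arrays. With the Y-linked block Fos turned to -0.86, Ier3 to -0.36, Jun to -0.35, Junb to -0.41 and Myc to -0.040, and with median centring Myc turned to -0.0096. The block values rest on the gap within the CCl4 arrays, since no FSP1 ablated or healthy array separates sex from group.

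aSMA ablated against healthy liver gave 2912 genes, 1372 with the Y-linked block, 4723 with array weights, 8349 on the deposited scale (8290 higher, 59 lower), 7381 with median centring (6521 higher, 860 lower), and 1639 to 3528 without single arrays. Without background correction 2843 genes passed, with offset 16 3097, and with only the groups compared 2877. Of the immediate early genes 1 passed, 0 with the Y-linked block, 5 with array weights, 6 on the deposited scale, 4 with median centring or only the groups compared, 2 without background correction or with offset 16, and 0 to 1 without single arrays. With the Y-linked block Dusp1 turned to -0.41, Fos to -0.54, Ier3 to -1.62, Jun to -0.14 and Junb to -0.15. These block values too rest on the gap within the CCl4 arrays and cannot separate sex from group.

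FSP1 ablated against CCl4 liver gave 1660 genes and 1106 to 1766 without single arrays, with the lowest count without FSP1 ablated array 2. With the Y-linked block 1 immediate early gene passed (Egr1). Ier3 turned to -0.87 with CCl4 arrays 1 to 3, -0.53 with the Y-linked block and -0.080 with array weights. Atf3 turned to 0.069 with CCl4 arrays 4 to 6 and Myc to -0.016 with arrays 1 to 3. Without single arrays Atf3 lay between -0.42 and 0.28, Ier3 between -0.11 and 0.80, and Myc between -0.0015 and 0.11.

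aSMA ablated against CCl4 liver gave 1 gene, 1228 with CCl4 arrays 1 to 3 (with 1 immediate early gene, Ier3), 4 with arrays 4 to 6, 211 with the Y-linked block, 1647 with array weights, 3 with every probe on its own, 6 with median centring, 0 to 189 without single arrays, and 0 on the deposited scale, without background correction, without a filter, with offset 16, with only the groups compared or with trend and robust variances. With array weights Atf3 turned to 0.067, Dusp1 to 0.47, Egr1 to 0.13, Fos to 0.42, Jun to 0.57 and Junb to 0.11. With CCl4 arrays 4 to 6 Dusp1 turned to 0.066, Egr1 to 0.30, Ier3 to 0.012, Junb to 0.24 and Myc to 0.025. Dusp1 was 0.11 on the deposited scale and 0.11 with median centring. Without single arrays Dusp1 lay between -0.54 and 0.62, Egr1 between -1.24 and 0.22, Fos between -1.17 and 0.21, Jun between -1.02 and 0.19, Junb between -0.46 and 0.21, and Myc between -0.078 and 0.0063.

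FSP1 against aSMA ablated liver gave 597 genes, 2551 with array weights, 316 on the deposited scale (95 higher, 221 lower), 349 without background correction, 380 without a filter, and 108 to 715 without single arrays. With array weights Atf3 turned to -0.34 and Dusp1 to -0.12. Without single arrays Atf3 lay between -0.15 and 0.56, Dusp1 between -0.031 and 1.13, Fos between -0.90 and 0.47, Jun between -0.65 and 0.60, and Junb between -0.62 and 0.032.

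Replicate numbers are shared between groups, but deviations of the 21 same-numbered pairs correlated at -0.30 to 0.38, over 0.1 in 6, and 4 of 17 arrays correlated best with their own number, so they were not taken as pairs. With a replicate block FSP1 ablated against healthy liver gave 1 immediate early gene, aSMA ablated against CCl4 liver 21 genes, and Ier3 turned to -0.53 after FSP1 ablation against CCl4 liver. Signal near background limits Myc, Ier2 and Btg2.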
